A study of Mus musculus with 2 samples.

Results

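The 10 genes described here encode ion channels, or subunits of them, by which a gut endocrine cell can turn a stimulus into an electrical signal and release its hormone. They are Scn3a, Trpa1, Cacna1a, Cacna1c, Cacna1d, Cacna1h, Cacna2d1, Piezo2, Kcnj11 and Abcc8. They were chosen by name from the 31055 genes of the count table, with earlier results of these data known, and followed across classes of cells. Of the 10, 9 had at least 1 UMI (unique molecular identifier, a counted transcript molecule) in the kept cells. The cells were epithelium from the small-intestinal crypts of a ChgaCreER-tdTomato::Rosa26LSL-eYFP mouse given 5 daily injections of 1 mg tamoxifen. Cre acts there in cells that use the Chga gene and switches on eYFP. eYFP+ cells and bulk epithelial cells were sorted, marked with hashtag antibodies and pooled in 1 droplet-based gene expression library with its hashtag library. All cells of the comparisons share that genotype, treatment and library, so cells are not replicates, no p-value was computed, and every interval covers counting error only.

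Enteroendocrine cells are electrically excitable: sodium channels carry the upstroke of the action potential, calcium channels let in the calcium that triggers fusion of hormone granules, and potassium channels set how easily the cell fires. Enterochromaffin (EC) cells make serotonin and are known for sensing irritants through TRPA1, whereas cells that make peptide hormones are known for coupling nutrient uptake to firing, in some of them through the ATP-sensitive potassium channel that also controls insulin release. In these data Scn3a and Trpa1 were higher in EC than in peptide hormone cells, Kcnj11 and Abcc8 were lower, and Cacna1a and Cacna2d1 were at nearly the same level in both. Within the EC cells, Trpa1 was higher in those rich in Afp (alpha-fetoprotein, a secreted fetal serum protein), while Scn3a differed between them by less than the limit for a call.

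Cells were put into 4 classes by the counts of a few genes. Afp-positive EC cells had at least 5 UMIs of Tph1 (the enzyme that starts serotonin synthesis) and at least 10 of Afp, which gave 155 cells with a median of 14899 UMIs. Afp-low EC cells had as much Tph1 but fewer than 10 Afp UMIs, which gave 192 cells with a median of 11449.5 UMIs. Peptide hormone cells had fewer than 5 Tph1 UMIs and at least 0.5% of their UMIs in Gcg, Cck, Gip, Ghrl, Sst, Nts and Pyy together, which gave 75 cells with a median of 12924 UMIs. The remaining cells with fewer than 20 UMIs of Chga (chromogranin A, a granule protein of endocrine cells) formed the Chga-low class of 1889 cells, with a median of 20437 UMIs. In all, 2311 of the 2335 kept cells fell in a class. Of these, 8 Afp-low EC and 72 peptide hormone cells also met the Chga limit and were counted only in their endocrine class. Kept cells held 1002 to 129719 UMIs each.

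Genes that the class limits did not use were measured as a check of the classes. Slc18a1, the vesicle transporter that loads serotonin, stood at 282 CPM (counts per 1000000 UMIs of the class) in Afp-positive EC, 211 in Afp-low EC, 35.8 in peptide hormone and 2.26 in Chga-low cells. Isl1, a transcription factor of peptide hormone lineages, stood at 58.6, 24.95 and 582 CPM in Afp-positive EC, Afp-low EC and peptide hormone cells, against 2.01 CPM in Chga-low cells. When cells were clustered without the channel genes, 315 of the 347 EC cells lay in enterochromaffin-like clusters and 71 of the 75 peptide hormone cells in the peptide hormone-like cluster. Of markers of excitable cells that are not epithelial, the enteric neuron gene Prph and the glial genes Sox10 and S100b had 0 UMIs in EC and in peptide hormone cells. Of the enteric neuron list, 7 of 9 genes had UMIs in Afp-positive and in Afp-low EC cells and 6 of 9 in peptide hormone cells. The list summed to 67.6, 59.9 and 295 CPM, against 4.50 CPM in Chga-low cells. The part of these genes in the results was not tested. All 4 stromal and all 4 mast cell markers had 0 UMIs in EC and peptide hormone cells. The 5 smooth muscle and interstitial markers summed to 22.6 CPM in all EC and 26.7 CPM in peptide hormone cells, against 9.52 CPM in Chga-low cells. Of these, Acta2 and Des had 0 UMIs in both. The 3 endothelial markers summed to 26.2 CPM in all EC cells, with UMIs in 1 of the 3, against 0.945 CPM in Chga-low cells. Peptide hormone cells had 0 UMIs of them. The part of both lists in the results was not tested.

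The labels name 1 mouse, yet 252 kept cells had Y-linked UMIs with little Xist, 1744 had Xist with no Y-linked UMIs and 339 met neither rule. Channel values are given for both sets of cells. The 4 hashtags fell into pairs, tags 1 and 2 with 966 cells and tags 3 and 4 with 1369. The sources used here do not say which pair marks which sort. The classes differed in both mixes. EC cells were 276 with tags 1 and 2 and 71 with tags 3 and 4, and Chga-low cells 606 and 1283. Cells with Y-linked UMIs and with Xist were 83 and 176 in EC, and 144 and 1514 in Chga-low cells. Comparisons were recomputed within each tag pair, but not within the sets by sex-linked transcripts. The doublet caller Scrublet marked only 2 cells, so it is not taken to have worked; an alternative without the top 6% by doublet score (173 cells) is given beside the results it moves.

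Throughout, a gene was called higher or lower between classes when it had at least 20 UMIs over both, when its exact 95% Poisson intervals did not overlap, and when the log2 ratio of CPM + 1 was at least 1 in size. In Afp-positive EC against Chga-low cells, 8 of the 10 genes had enough UMIs and all 8 were called higher; over all 13444 genes tested, 17.1% were. In Afp-low EC against Chga-low cells 7 of 8 were called higher, with 14.3% over all 13410 genes, and in peptide hormone against Chga-low cells 8 of 9 were, with 10.9% over all 13253 genes. None of the genes was called lower in these comparisons, where 7.68%, 3.24% and 2.81% of all genes were. The 3 comparisons share the Chga-low cells. Because the channel genes were chosen with earlier results of these data known, these counts describe the list and test nothing. Kcnj11 had enough UMIs only in the peptide hormone comparison, where its UMIs came mostly from the peptide hormone cells. The median log2 ratio of the channel genes tested was 4.93, 4.90 and 4.07, against 0.10, 0.15 and 0.08 over all genes tested.

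**Figure D1:**
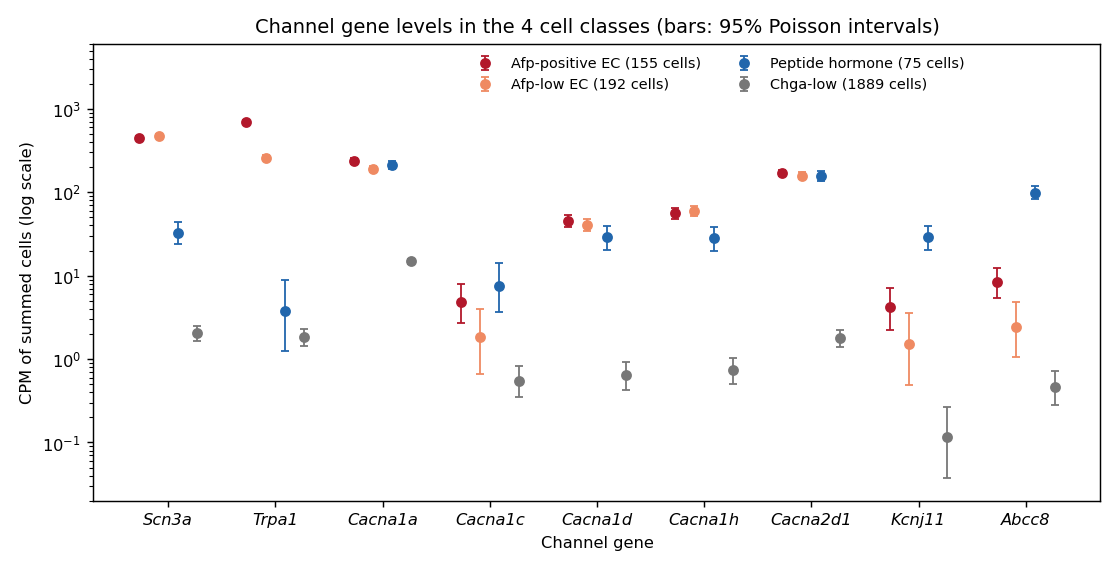
CPM of summed UMIs of each channel gene by cell class, on a log axis, with exact 95% Poisson intervals as bars. Scn3a and Trpa1 are highest in both EC classes, Kcnj11 and Abcc8 in peptide hormone cells, and Cacna1a and Cacna2d1 lie close together in the 3 endocrine classes; Piezo2 had 0 UMIs.

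Scn3a encodes a pore subunit of the voltage-gated sodium channel. It stood at 451 CPM in Afp-positive EC (95% interval 428 to 476; 1410 UMIs) and 469 CPM in Afp-low EC cells (446 to 493; 1542 UMIs). Scn3a stood at 32.8 CPM in peptide hormone cells (23.7 to 44.1; 43 UMIs) and 2.03 CPM in Chga-low cells (1.63 to 2.4996; 88 UMIs). The intervals of the EC classes overlapped, and those of the peptide hormone and Chga-low classes lay apart from them and from each other. Scn3a was 223-fold higher in Afp-positive EC than in Chga-low cells (interval 179 to 279; log2 ratio 7.22), rank 15 of all 13444 genes, and 231-fold higher in Afp-low EC than in Chga-low cells (log2 ratio 7.28), rank 5 of 13410. It was found in nearly every EC cell: 97.4% of Afp-positive and 98.96% of Afp-low EC cells had at least 1 UMI, as did 34.7% of peptide hormone and 3.49% of Chga-low cells. After each cell was thinned to 2000 UMIs these shares were 56.8%, 69.8%, 12.7% and 0.562%. In B, plasma and T cell-like cells, which should lack the gene, 1.504% of 133 cells had a UMI (median 2684 UMIs). After thinning, 1.89% of 106 had 1. The Chga-low share after thinning was not above that of these cells, which are too few to tell it from background. The Chga-low class also held 31 cells of endocrine clusters, described below. Per cell, the median was 531 CPM in Afp-positive and 604 CPM in Afp-low EC cells, with interquartile ranges of 273 to 737 and 294 to 1085 CPM, and 0 in peptide hormone and in Chga-low cells. Without the 173 cells of highest doublet score, Scn3a stood at 596 CPM in 125 Afp-positive EC cells (562 to 631) and 804.5 CPM in 134 Afp-low EC cells (758 to 853). It then stood at 48.1 CPM in 58 peptide hormone cells and 1.93 CPM in 1827 Chga-low cells. The intervals of the EC classes were then apart, with Afp-positive cells lower (log2 ratio -0.43, under the limit for a call).

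Divided by Tph1, the peptide hormone cells had 62.3 CPM of Scn3a in the 9 cells with 1 to 4 Tph1 UMIs and 29.6 CPM in the 66 with none. Of the other sodium channel genes, Scn2a and Scn8a, which encode pore subunits known from neurons, stood at 13.7 and 9.21 CPM in all EC cells and had 0 UMIs in peptide hormone cells, where a count of 0 allows up to 2.29 CPM (3 counts). Scn2b, an auxiliary sodium channel subunit, ran the other way, at 5.44 CPM in Afp-positive EC, 13.4 in Afp-low EC and 6.09 in peptide hormone cells, against 21.7 CPM in Chga-low cells. It was called lower in Afp-positive EC and in peptide hormone cells. Of the 14 genes of the sodium channel list beside Scn3a, 3 had enough UMIs in EC cells. In Afp-positive EC against Chga-low cells 2 were called higher and 1 lower, with 17.1% and 7.68% over all genes.

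Trpa1 encodes the cation channel opened by mustard oil and other irritants. It stood at 704 CPM in Afp-positive EC (675 to 734; 2200 UMIs) and 260 CPM in Afp-low EC cells (242 to 278; 853 UMIs). Trpa1 stood at 3.81 CPM in peptide hormone cells (1.24 to 8.89; 5 UMIs) and 1.82 CPM in Chga-low cells (1.44 to 2.27; 79 UMIs). The intervals of the EC classes lay apart from each other and from the rest, while those of the peptide hormone and Chga-low classes overlapped. Trpa1 was 387-fold higher in Afp-positive EC than in Chga-low cells (309 to 490; log2 ratio 7.97), which is rank 3 of 13444 genes. It was 142.5-fold higher in Afp-low EC than in Chga-low cells (log2 ratio 6.53), rank 13 of 13410. A Trpa1 UMI was found in 96.8% of Afp-positive EC, 68.2% of Afp-low EC, 6.67% of peptide hormone and 3.71% of Chga-low cells, and after thinning in 71.6%, 38.1%, 1.41% and 0.281%. Of the B, plasma and T cell-like cells, 0 of 133 had 1, which allows a share of up to 2.26% (3 counts), and 0 of 106 after thinning, which allows up to 2.83%. Without the cells of highest doublet score, Trpa1 stood at 936 CPM in Afp-positive EC (894 to 980), 444.5 CPM in Afp-low EC (410 to 481), 5.20 CPM in peptide hormone and 1.755 CPM in Chga-low cells. The log2 ratio between the EC classes was then 1.07 and still past the limit.

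Between the EC classes Trpa1 was 2.71-fold higher in Afp-positive than in Afp-low cells (2.51 to 2.94; log2 ratio 1.44), rank 96 of 11147 genes. It was 1 of 2 channel genes called higher there, of 8 tested, with 1.69% called over all genes; none was called lower (0.915% over all genes). The other was Abcc8, described with Kcnj11. The remaining 6 were not called: Scn3a had a ratio of 0.962 (0.894 to 1.04), Cacna2d1 1.08 (0.960 to 1.23) and Cacna1a 1.24 (1.12 to 1.38), and Cacna1c, at 15 and 6 UMIs, had overlapping intervals. Trpa1 followed Afp in steps: it stood at 178 CPM in the 115 EC cells with 0 Afp UMIs, 373 in the 77 with 1 to 9, 624 in the 113 with 10 to 99 and 888 in the 42 with 100 or more. Scn3a stood at 464, 476, 474 and 399.5 CPM in the same steps. With Afp taken per 10000 UMIs of the cell, Trpa1 stood at 216, 392, 707 and 1037 CPM from the lowest to the highest step. Few cells lie at the limit of 10 Afp UMIs, 7 with 7 to 9 and 16 with 10 to 12.

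**Figure D2:**
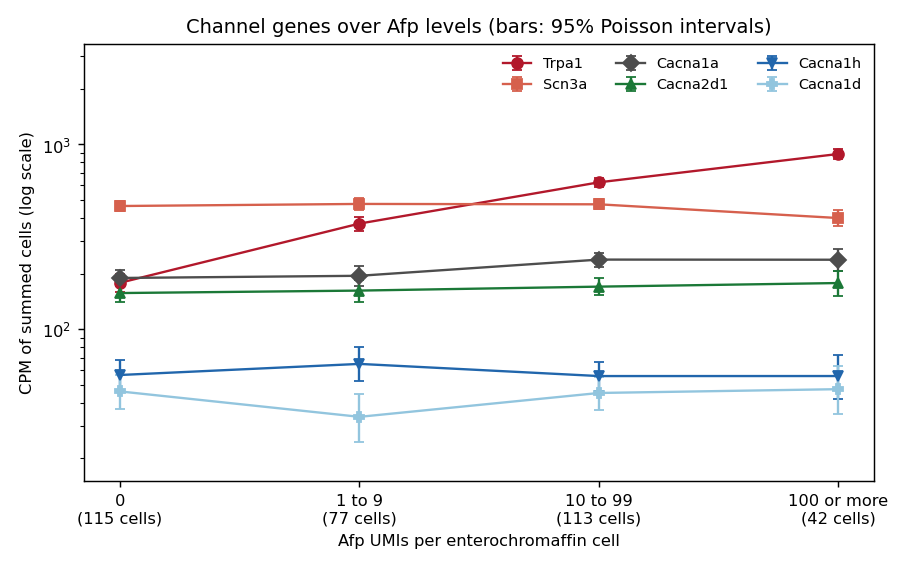
CPM of summed UMIs of the channel genes in EC cells divided by their Afp UMIs, in order from 0 to 100 or more, with exact 95% Poisson intervals. Trpa1 stands at 178, 373, 624 and 888 CPM, while Scn3a stays between 399.5 and 476 CPM.

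Tuft cell markers moved the same way as Trpa1 between the EC classes. The 8 genes summed to 66.9 CPM in Afp-positive EC, 17.3 CPM in Afp-low EC, 6.09 CPM in peptide hormone and 30.4 CPM in Chga-low cells, with all 8 above 0 in both EC classes. Their part in the result was not tested. The tuft-like cluster held 30 cells with 80.1 CPM of Trpa1 (37 UMIs). Of these, 4 cells of the Afp-positive EC class held 34 UMIs, and the 26 Chga-low cells held 3 (7.23 CPM). EC cells with at least 5 UMIs of Neurog3, the transcription factor that starts the endocrine programme, had 599 CPM of Scn3a and 184 CPM of Trpa1 (18 cells), against 452 and 506 CPM in the 308 EC cells with none. Among 15 pairs of channel genes in thinned cells of each EC class, the share of cells with a second gene had overlapping 95% intervals in cells with and without the first in all 15. Cacna2d1 and Trpa1 were such a pair, with Cacna2d1 in 30.6% of Afp-positive EC cells with a Trpa1 UMI (22.2 to 40.1) and 11.4% of those without (3.79 to 24.6). In Afp-low EC cells these shares were 44.4% (32.7 to 56.6) and 24.8% (17.3 to 33.6). Overlapping intervals do not show that the genes of a pair occur independently.

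Of the 5 calcium channel genes, 4 were called higher than in Chga-low cells in each of the 3 endocrine classes, and Cacna1c in 2 of them. Over all genes tested, 17.1% were called higher in Afp-positive EC, 14.3% in Afp-low EC and 10.9% in peptide hormone cells. Cacna1a encodes the pore of the P/Q-type channel that triggers transmitter release at many synapses. It stood at 238 CPM in Afp-positive EC (221 to 255.6; 743 UMIs), 191 CPM in Afp-low EC (177 to 207; 629 UMIs) and 213 CPM in peptide hormone cells (189 to 240; 280 UMIs), against 14.8 CPM in Chga-low cells (13.7 to 16.0; 644 UMIs). Its fold over Chga-low cells was 16.0, 12.9 and 14.4 in that order of classes, and between all EC and peptide hormone cells it was 1.00 (0.882 to 1.15). Without the cells of highest doublet score it stood at 311 CPM in Afp-positive EC, 327 CPM in Afp-low EC and 299 CPM in peptide hormone cells, against 14.3 CPM in Chga-low cells, and the 3 endocrine intervals overlapped. Cacna1a also had UMIs in other cells: 23.1% of Chga-low cells had 1, and 3.54% after thinning, with 4.51% and 1.89% of the B, plasma and T cell-like cells, in which it stood at 14.0 CPM (5.13 to 30.4), close to the Chga-low level. Among Chga-low cells it stood at 36.2 CPM in tuft-like cells (20.2 to 59.65; 15 UMIs in 26 cells) and 21.8 CPM in stem-like cells (18.6 to 25.3), against 10.2 in cycling-like, 8.37 in Paneth-like, 7.42 in goblet-like and 7.14 CPM in enterocyte-like cells. The tuft-like and stem-like intervals overlapped each other and that of the B, plasma and T cell-like cells. The tuft-like value depended on the clustering: at a Leiden resolution of 0.5 it was 108 CPM. The tuft-like cluster then held 48 cells instead of 30, with Neurog3 among its leading genes and 4 endocrine progenitor markers higher. That value is thus not of tuft-like cells alone.

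Cacna2d1 encodes an auxiliary subunit that brings calcium channels to the membrane and binds gabapentin. It stood at 172 CPM in Afp-positive EC (158 to 187), 159 CPM in Afp-low EC (146 to 173) and 158 CPM in peptide hormone cells (138 to 182), against 1.78 CPM in Chga-low cells (1.40 to 2.22). The 3 endocrine intervals overlapped, and the fold over Chga-low cells was 97.0, 89.5 and 89.25 in that order. Without the cells of highest doublet score Cacna2d1 stood at 232 CPM in Afp-positive EC (211 to 254), 288 CPM in Afp-low EC (260 to 317) and 216 CPM in peptide hormone cells (184 to 251), against 1.66 CPM in Chga-low cells. The interval of Afp-low EC cells was then above those of both other endocrine classes. A UMI was found in 91.0%, 80.2% and 81.3% of cells, against 2.12% of Chga-low cells, and after thinning in 25.2%, 32.3% and 33.8%, against 0.506%. The few Chga-low UMIs were concentrated, 44.2% of them in 5 cells. The promoter window of Cacna2d1 is shown because the gene was called between neither pair of endocrine classes compared while standing far above the Chga-low class. The 2 windows of Cacna1d are shown because a gene with the same kind of pattern has start sites of very unlike base composition.

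RefSeq (GRCm38.p6) gave a window of 300 bases, from 250 before to 50 after an annotated start, for 3 of the 10 genes (6 windows); the other genes were Scn3a, Trpa1, Cacna1a, Cacna1h, Piezo2, Kcnj11 and Abcc8. The motifs searched on both strands were the E-box CANNTG, the cyclic AMP response element TGACGTCA and its core TGACG, the GC box GGGCGG and the TATA box TATAAA. The core lies within the full element, and matches may overlap. They were held by 72.3%, 1.79%, 20.8%, 35.7% and 13.6% of all 32851 windows. Capitals mark matches.
Cacna2d1, chr5:15934441-15934740, plus strand: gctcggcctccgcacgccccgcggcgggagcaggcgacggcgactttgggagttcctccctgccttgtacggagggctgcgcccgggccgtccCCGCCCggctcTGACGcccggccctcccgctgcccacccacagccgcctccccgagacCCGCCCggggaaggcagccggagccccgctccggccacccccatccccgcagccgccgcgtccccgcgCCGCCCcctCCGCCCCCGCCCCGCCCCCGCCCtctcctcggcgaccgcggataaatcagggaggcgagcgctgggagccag
Cacna1d, first window, chr14:30491107-30491406, minus strand: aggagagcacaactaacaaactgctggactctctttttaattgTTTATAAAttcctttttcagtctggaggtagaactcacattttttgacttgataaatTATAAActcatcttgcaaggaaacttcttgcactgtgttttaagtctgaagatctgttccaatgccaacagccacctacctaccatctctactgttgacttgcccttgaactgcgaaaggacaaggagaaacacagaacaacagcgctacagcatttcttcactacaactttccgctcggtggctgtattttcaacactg
Cacna1d, second window, chr14:30353437-30353736, minus strand: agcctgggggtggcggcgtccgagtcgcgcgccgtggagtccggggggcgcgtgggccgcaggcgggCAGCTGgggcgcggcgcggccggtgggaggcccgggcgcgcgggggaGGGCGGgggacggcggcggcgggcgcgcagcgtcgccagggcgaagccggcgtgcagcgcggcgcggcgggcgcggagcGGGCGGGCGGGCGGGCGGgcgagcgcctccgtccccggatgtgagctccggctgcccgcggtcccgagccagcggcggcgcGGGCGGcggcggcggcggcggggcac

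The Cacna2d1 window had 80% G and C, 42 CG pairs, 7 GC box matches (read as CCGCCC) and 1 TGACG, and no match to CANNTG or TATAAA. The first Cacna1d window had 40.3% G and C, 4 CG pairs and 3 TATA box matches, of which 1 on each strand overlap, while the second had 87.3% G and C, 63 CG pairs, 6 GC box matches and 1 E-box, CAGCTG. The median over all windows was 52.7% G and C. The counts are of 3-prime ends, so they do not say which start a cell used.

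Cacna1d encodes an L-type pore that opens at fairly low voltage. It stood at 45.8 CPM in Afp-positive EC (38.6 to 53.9), 40.8 CPM in Afp-low EC (34.2 to 48.3) and 28.95 CPM in peptide hormone cells (20.5 to 39.7), against 0.646 CPM in Chga-low cells (0.429 to 0.933). The fold over Chga-low cells was 70.9, 63.2 and 44.8. Among Chga-low cells the B or plasma cell-like cells stood at 16.2 CPM (5.25 to 37.7; 5 UMIs in 4 of 91 cells) and the stem-like cells at 0.259 CPM. Cacna1h encodes a T-type pore that opens near the resting potential. It stood at 55.7 CPM in Afp-positive EC (47.7 to 64.6) and 59.9 CPM in Afp-low EC (51.9 to 68.9), with 28.2 CPM in peptide hormone cells (19.9 to 38.9) and 0.738 CPM in Chga-low cells (0.505 to 1.04). The EC intervals lay above that of the peptide hormone cells, and the ratio of all EC to peptide hormone cells was 2.05 (1.46 to 2.96; log2 ratio 1.01), just past the limit, and the call held in 14 of 22 processing alternatives. Without the cells of highest doublet score, Cacna1h stood at 76.9 CPM in Afp-positive EC, 104 CPM in Afp-low EC, 41.6 CPM in peptide hormone and 0.658 CPM in Chga-low cells. Cacna1d then stood at 61.0, 67.95, 41.6 and 0.561 CPM in the same order. Cacna1c, the L-type pore best known from heart muscle, was sparse. It stood at 4.80 CPM in Afp-positive EC (15 UMIs), 1.83 CPM in Afp-low EC (6 UMIs), 7.62 CPM in peptide hormone cells (10 UMIs) and 0.553 CPM in Chga-low cells (24 UMIs). It was called higher than in Chga-low cells in Afp-positive EC and in peptide hormone cells, in 17 of 22 alternatives each.

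Of the calcium channel genes outside the 10, the N-type pore gene Cacna1b stood at 4.16 and 3.96 CPM in Afp-positive and Afp-low EC cells, had 0 UMIs in peptide hormone cells and stood at 0.207 CPM in Chga-low cells. Cacnb3, a cytoplasmic beta subunit, was called higher in the 3 endocrine classes, at 37.8, 36.8 and 31.2 CPM against 6.50 CPM in Chga-low cells.

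The ATP-sensitive potassium channel genes were highest in the peptide hormone cells. Kcnj11 encodes the pore. It stood at 4.16 CPM in Afp-positive EC (2.22 to 7.12; 13 UMIs in 9 cells), 1.52 CPM in Afp-low EC (0.494 to 3.55; 5 UMIs in 3 cells) and 28.95 CPM in peptide hormone cells (20.5 to 39.7; 38 UMIs in 29 cells), against 0.115 CPM in Chga-low cells (5 UMIs). Abcc8 encodes the sulfonylurea receptor that surrounds the pore. It stood at 8.32 CPM in Afp-positive EC (5.44 to 12.2; 26 UMIs in 12 cells), 2.43 CPM in Afp-low EC (1.05 to 4.80; 8 UMIs in 6 cells) and 99.03 CPM in peptide hormone cells (82.7 to 118; 130 UMIs in 57 cells), against 0.461 CPM in Chga-low cells (20 UMIs). The peptide hormone intervals lay above all others. Abcc8 was also called higher in Afp-positive and in Afp-low EC cells than in Chga-low cells, calls that held in 17 and 11 of 22 processing alternatives. In peptide hormone against Chga-low cells Abcc8 was 215-fold higher (134 to 363; log2 ratio 6.10), rank 28 of 13253 genes, and Kcnj11 was 251-fold higher (98.7 to 817; log2 ratio 4.75). Without the cells of highest doublet score, Abcc8 stood at 11.3 CPM in Afp-positive EC, 3.61 CPM in Afp-low EC, 133 CPM in peptide hormone and 0.488 CPM in Chga-low cells, and Kcnj11 at 6.67, 3.61, 28.6 and 0.0975 CPM in the same order. After thinning, 25.4% of peptide hormone cells had an Abcc8 UMI and 5.63% a Kcnj11 UMI (76% and 38.7% before), against 0 of the 106 thinned B, plasma and T cell-like cells. Both genes lie on chromosome 7 with 0 protein-coding genes between them in the RefSeq annotation.

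Among the 347 EC cells the UMIs of this channel were concentrated in cells that also held peptide hormones. In 19 EC cells at least 0.5% of UMIs came from the 7 hormones, a division chosen after the values were seen. They had 27.7 CPM of Kcnj11 (14 of the 18 EC UMIs) and 51.5 CPM of Abcc8 (26 of 34), against 0.6775 and 1.355 CPM in the other 328. Scn3a stood at 505 CPM in the 19 cells and 457 CPM in the 328, and Trpa1 at 459 and 478 CPM, so their levels were close. The 19 cells had a median of 25076 UMIs, against 12005 in the 328. Abcc8 was called higher in Afp-positive than in Afp-low EC cells (3.42-fold; 1.503 to 8.74), and 13 of the 19 cells were Afp-positive. Without the 19, it stood at 1.45 CPM in Afp-positive and 1.27 CPM in Afp-low EC cells (4 UMIs each), and the call was lost. Of the 19, 2 were among the 173 cells of highest doublet score; with the 173 left out, the EC class kept 259 cells, in which Kcnj11 stood at 5.4 CPM and Abcc8 at 8.10 CPM.

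Divided by the most abundant hormone, the peptide hormone cells led by Cck (32 cells), Gip (25) and Sst (6) had 112, 110.5 and 117 CPM of Abcc8, and those led by Ghrl (10) had 43.2 CPM (19.7 to 82.0; 9 UMIs). The interval of the cells led by Ghrl lay below that of the cells led by Cck and overlapped those of the others. Cacna2d1 stood at 164 CPM in cells led by Cck, 211 CPM with Gip, 76.8 CPM with Ghrl and 95.8 CPM with Sst. Cacna1a was more even, at 220, 204, 254 and 170 CPM in the same order, with all intervals overlapping. Scn3a was low in all of them, between 9.60 and 46.6 CPM.

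**Figure D3:**
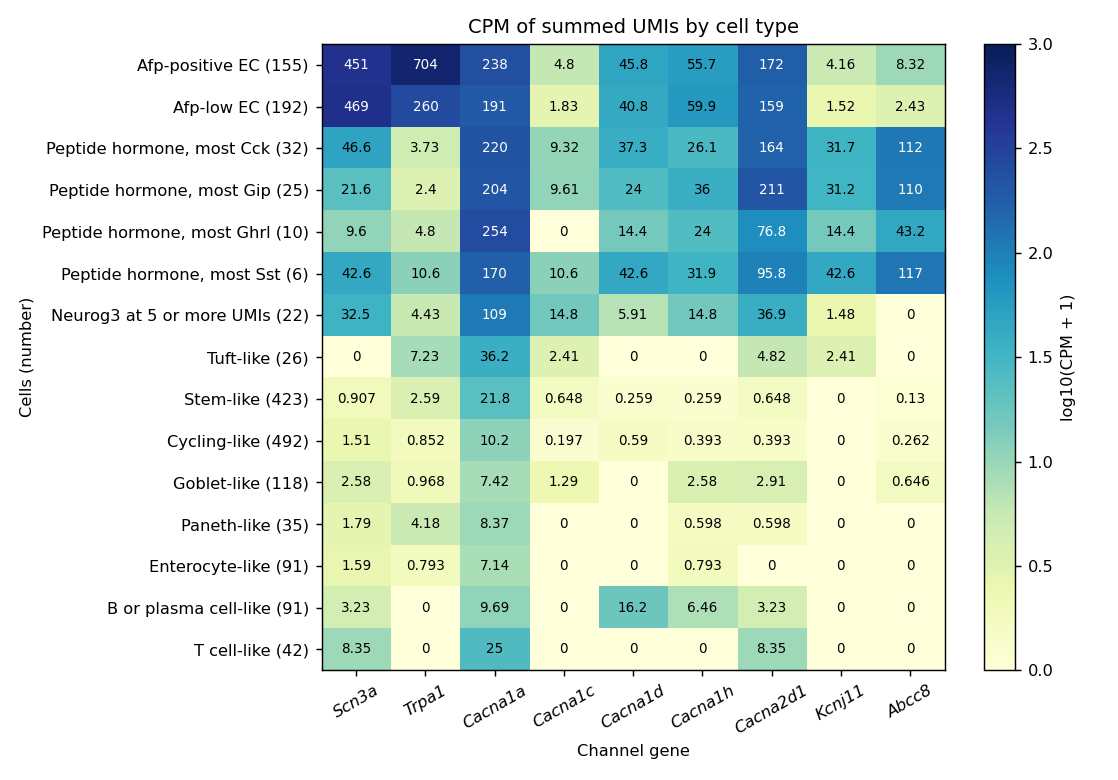
CPM of summed UMIs of 9 channel genes (columns) in cell classes and types (the number of cells in brackets), coloured on a log scale. The EC classes stand out in Scn3a and Trpa1, and the peptide hormone cells in Kcnj11 and Abcc8. Cacna1a also has UMIs in Neurog3-bearing (109 CPM) and tuft-like cells (36.2 CPM). At a Leiden resolution of 0.5 the tuft-like value was 108 CPM, in a cluster with Neurog3 among its leading genes.

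In all EC against peptide hormone cells, 3 of 9 channel genes were called higher, with 5.65% over all 11465 genes, and 2 lower, with 2.38%. Scn3a was 14.1-fold higher (10.4 to 19.5; 461 and 32.8 CPM) and Trpa1 125-fold higher (53.5 to 385; 476 and 3.81 CPM; rank 7 from the highest), and Cacna1h was the third. Kcnj11 was 10.3-fold lower (5.74 to 19.2; 2.81 and 28.95 CPM) and Abcc8 18.7-fold lower (12.7 to 28.1; 5.30 and 99.03 CPM; rank 12 from the lowest). Cacna1a, Cacna2d1 and Cacna1d had ratios of 1.00, 1.04 (0.899 to 1.22) and 1.49 (1.06 to 2.16) and were not called, nor was Cacna1c at 0.430 (0.194 to 1.02).

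Piezo2, the stretch-activated channel known from touch receptors and from mechanosensitive EC cells, had 0 UMIs in all kept cells and 1 UMI in all 11248 barcodes. A count of 0 allows up to 0.960 CPM in Afp-positive EC, 0.913 in Afp-low EC, 2.29 in peptide hormone and 0.0692 in Chga-low cells (3 counts of each class). These are upper limits, and the reason for the missing counts was not tested.

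Endocrine progenitors are known by Neurog3, and 22 cells had at least 5 of its UMIs without meeting the EC or peptide hormone rule. In these cells Cacna1a stood at 109 CPM (85.9 to 137; UMIs in 18 cells), Cacna2d1 at 36.9 CPM (23.9 to 54.5; 6 cells) and Scn3a at 32.5 CPM (20.4 to 49.2; 4 cells), against 14.8, 1.78 and 2.03 CPM in the Chga-low class. Abcc8 had 0 UMIs, Kcnj11 1 and Trpa1 3. Scn3a was thus carried by few cells, 1 of them with 14 of its 22 UMIs, while Cacna1a was spread over most.

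Of the Chga-low cells, 31 lay in endocrine clusters. The 10 in enterochromaffin-like clusters stood at 360 CPM of Scn3a, 220 of Trpa1 and 380.5 CPM of Cacna1a, and the 21 in the peptide hormone-like cluster at 183 CPM of Cacna1a and 69.9 CPM of Cacna2d1. In the 1725 other epithelial Chga-low cells Scn3a stood at 1.46 CPM, Trpa1 at 1.555, Cacna1a at 12.6, Cacna2d1 at 0.754, Cacna1d at 0.377 and Abcc8 at 0.259 CPM.

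**Figure D4:**
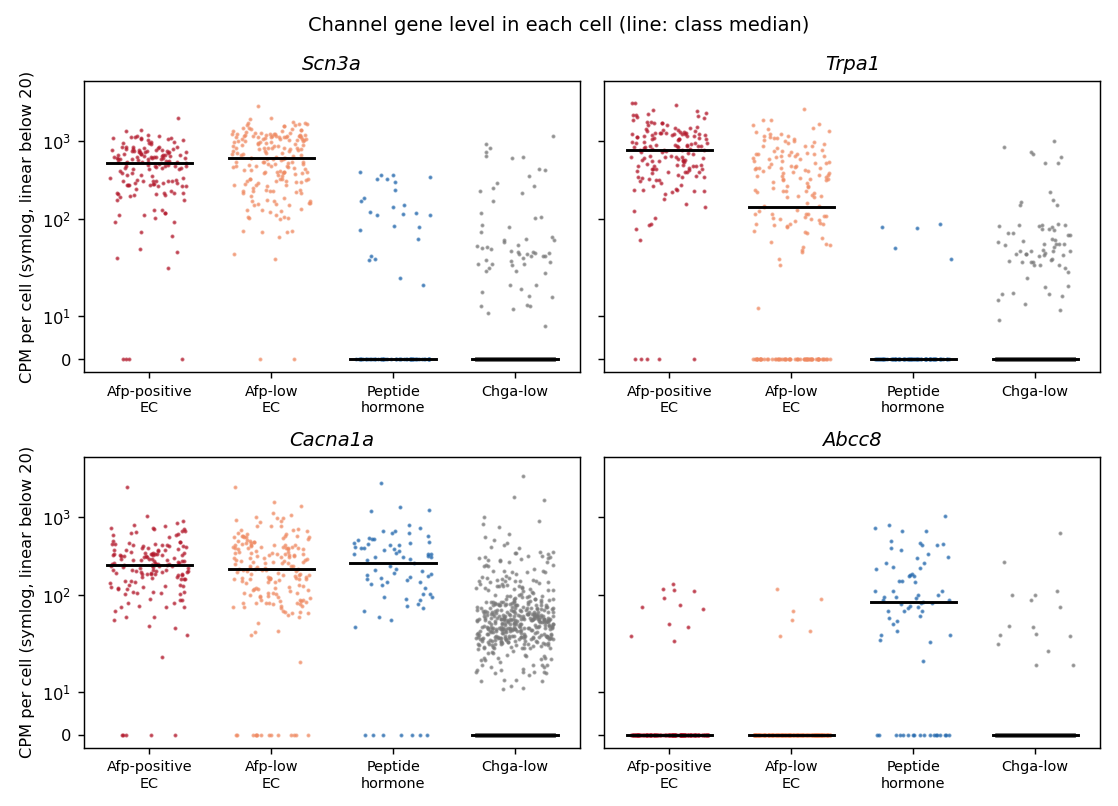
CPM of Scn3a, Trpa1, Cacna1a and Abcc8 in each cell, by class, on an axis that is linear near 0 and logarithmic above. Scn3a is above 0 in nearly all EC cells, Trpa1 runs in Afp-low EC cells from 0 to levels seen in the Afp-positive class, and Abcc8 is above 0 in most peptide hormone cells.

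A median of 5 of the channel genes had a UMI in an Afp-positive EC cell (range 1 to 9), 5 in an Afp-low EC cell (1 to 8) and 4 in a peptide hormone cell (1 to 7), against 0 in a Chga-low cell (0 to 6). Of the Chga-low cells, 69.9% had none. After thinning to 2000 UMIs the medians were 2, 2 and 1, against 0. Trpa1 varied widely among Afp-low EC cells. Its interquartile range was 406 to 1229 CPM around a median of 764 CPM in the Afp-positive class, and 0 to 528 CPM around 144 CPM in the Afp-low class.

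The levels depended on the hashtag pair. In all EC cells of tags 3 and 4 (71 cells, median 22992 UMIs) Scn3a stood at 288 CPM, Trpa1 at 336.5 CPM, Cacna1a at 135 CPM and Cacna2d1 at 97.2 CPM. With tags 1 and 2 (276 cells, median 11616 UMIs) the same genes stood at 527, 530, 244.5 and 192 CPM. These intervals did not overlap between the pairs, and the values of all 4 genes were lower with tags 3 and 4. High doublet scores moved with the pair: 40 of the 71 EC cells of tags 3 and 4 (56.3%) were among the 173 cells of highest score, against 48 of 276 (17.4%) with tags 1 and 2. Without the 173, Scn3a stood at 520 CPM with tags 3 and 4 and 709 CPM with tags 1 and 2. Trpa1 then stood at 620 and 750 CPM, Cacna1a at 263 and 326 CPM and Cacna2d1 at 173 and 268 CPM. The intervals of Scn3a, Trpa1 and Cacna2d1 still did not overlap between the pairs, while those of Cacna1a did. Over all remaining 259 EC cells Scn3a was then 682 CPM and Trpa1 732 CPM. Trpa1 was higher in Afp-positive than in Afp-low EC cells within each pair, at 762 and 288 CPM with tags 1 and 2 and at 525 and 196 CPM with tags 3 and 4. Abcc8 stood at 95.9 CPM in peptide hormone cells of tags 1 and 2 and 109 CPM in those of tags 3 and 4.

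The sets by sex-linked transcripts also differed in level. In Afp-positive and Afp-low EC cells, Trpa1 stood at 988 and 374 CPM among cells with Y-linked UMIs (38 and 45 cells), and at 661 and 242 CPM among cells with Xist (66 and 110 cells). Scn3a stood at 523 and 599.6 CPM among the first and 429 and 448 CPM among the second. In peptide hormone cells Abcc8 stood at 60.95 CPM in 20 cells with Y-linked UMIs and 115 CPM in 44 with Xist. In both sets Trpa1 was thus higher in Afp-positive than in Afp-low EC cells, and Scn3a was not.

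Genes of the same kinds outside the 10 were counted by list, to be read against the 17.1%, 14.3% and 10.9% of all genes called higher than in Chga-low cells in Afp-positive EC, Afp-low EC and peptide hormone cells, and the 7.68%, 3.24% and 2.81% called lower. Of the exocytosis list, which holds the machinery of granule fusion, 15 of 15 genes tested were called higher in Afp-positive EC than in Chga-low cells, 15 of 15 in Afp-low EC and 13 of 14 in peptide hormone cells, with median log2 ratios of 3.31, 3.67 and 3.02. Rab3c, a granule-bound GTPase, stood at 673 CPM in all EC and 26.7 CPM in peptide hormone cells, and Syt7, a calcium sensor, at 16.7 and 46.5 CPM. Of the other genes whose symbols begin with Kcn, 14 of 27 tested were called higher and 4 lower in Afp-positive EC, 15 and 2 of 26 in Afp-low EC, and 11 and 2 of 23 in peptide hormone cells. Kcnq1ot1, a non-coding antisense RNA and no channel gene, is in that list. It was 1 of those called lower in each class, at 17.6, 26.2 and 33.5 CPM against 97.9 CPM in Chga-low cells. Kcnb2, a delayed rectifier, stood at 88.0 CPM in Afp-positive EC, 80.6 in Afp-low EC and 86.1 in peptide hormone cells, against 1.27 CPM in Chga-low cells. Kcne3, the gene of that list with most UMIs, stood at 71.7, 121 and 118 CPM in the same order, against 219 CPM in Chga-low cells. It was called lower in Afp-positive EC cells only. Kcnj3, a pore of the channel opened by G proteins, was lower in all EC than in peptide hormone cells, at 3.59 and 40.4 CPM (log2 ratio -3.17), as was Kcnk16, a leak channel, at 13.1 and 49.5 CPM.

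Of the TRP and mechanosensitive genes other than Trpa1 and Piezo2, 5 of 12 tested were called higher in Afp-positive EC, 5 of 13 in Afp-low EC and 1 of 8 in peptide hormone cells, each against Chga-low cells, and none lower. Trpc7, a cation channel of the TRPC family, stood at 52.1 CPM in all EC and 0.762 CPM (1 UMI) in peptide hormone cells. Trpc5 was called higher in Afp-positive than in Afp-low EC cells, at 25.6 and 8.52 CPM. Trpm7, the gene of this list with most UMIs, was called in none of the endocrine classes against Chga-low cells. It stood at 73.6 CPM in Afp-positive EC, 75.8 in Afp-low EC, 62.5 in peptide hormone and 62.3 CPM in Chga-low cells. Of the chloride and pacemaker (HCN) genes 5 of 17, 3 of 17 and 3 of 17 were called higher in the same order, and 1, 0 and 2 lower, shares that in Afp-low EC and peptide hormone cells lie near those over all genes for the higher calls.

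Of the nutrient-sensing genes, 3 of 12 tested were called higher and 6 lower in all EC than in peptide hormone cells. Over all 11465 genes of that comparison, 5.65% were called higher and 2.38% lower. The fatty acid receptor Ffar1 stood at 7.80 CPM in all EC and 92.9 CPM in peptide hormone cells, the glucose transporter gene Slc5a1 at 35.1 and 132 CPM, and the peptide transporter gene Slc15a1 at 1.87 and 36.6 CPM. Ffar2, a receptor for short-chain fatty acids, was higher in EC cells, at 228 and 58.7 CPM, as was the olfactory receptor gene Olfr558, at 39.8 CPM in EC cells and 0 UMIs in peptide hormone cells.

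The genes most alike in level across the 16 clusters (Pearson correlation r of log2(CPM + 1) over 8255 genes, given as a description, since the clusters share 1 library) were Chgb, Chga and Tac1 for Scn3a, with r of 0.992, 0.986 and 0.981. For Trpa1 they were Lmx1a, Fxyd6 and Snap25 (0.984, 0.979 and 0.978), and for Abcc8 Cck, Isl1 and Rbp4 (0.926, 0.9195 and 0.9195). For Cacna1a they were Nenf, Prnp and Rfx3, for Cacna2d1 Map1b, Prnp and Hmgn3, for Cacna1h Ambp, Gpx3 and Pcsk1n and for Cacna1d Lhfpl2, Prodh2 and Dnase2a, with r between 0.954 and 0.981. Among the channel genes, Scn3a had an r of 0.935 with Trpa1, 0.968 with Cacna2d1 and 0.507 with Abcc8.

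The 8913 barcodes that the authors left out entered no comparison. Those that met the Afp-positive EC rule (49 barcodes) had 813 CPM of Trpa1 and 408 CPM of Scn3a, against 704 and 451 CPM in the kept cells of that class. Those that met the Chga-low rule had 16.4 CPM of Scn3a and 15.1 CPM of Trpa1, above the kept Chga-low cells.

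**Figure D5:**
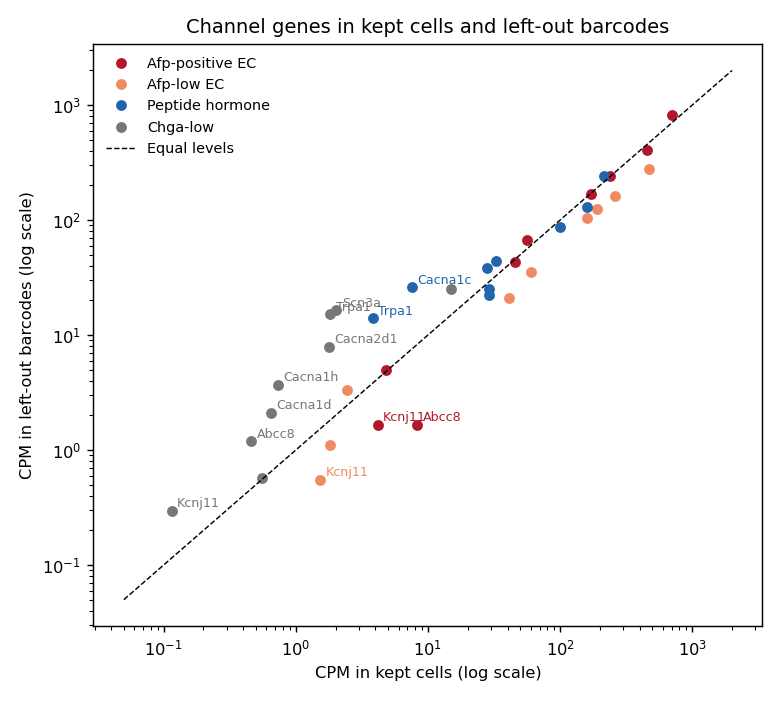
CPM of the channel genes in barcodes left out of the authors' filtered table against kept cells, both on log axes, by class, with names for genes that differ by more than 2-fold. Afp-positive EC points lie near the line of equal levels for the well-counted genes, and the Chga-low points of Scn3a (16.4 and 2.03 CPM) and Trpa1 (15.1 and 1.82 CPM) lie above it.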

How the data were processed

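The authors deposited raw counts of UMIs for 2335 filtered cells and a matrix of 11248 barcodes with 31055 genes and hashtag counts; 0 entries differed between them. Per the submitters' processing notes, Cell Ranger and Seurat were used; the file header gives matrix software version 3.1.0, and the filter and the annotation are not given in the sources used here. The labels name a human build although the identifiers are mouse Ensembl.

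UMIs were summed per class and divided by the class total per 1000000 (CPM), with exact 95% Poisson intervals; for log2 ratios 1 CPM was added to each level, and shares were also taken after thinning to 2000 UMIs, which leaves out shallower cells (155, 189, 71 and 1780 remained). Clusters used 2000 variable genes without the channel genes, 30 components, 15 neighbours and Leiden resolution 1 (Python 3.11.15 with igraph 0.11.9, scanpy 1.11.5, scikit-image 0.26.0, leidenalg 0.10.2, numpy 2.4.6, scikit-learn 1.9.0, pandas 2.3.3 and scipy 1.17.1). Tag pairs were split at a log2 count ratio of 2.08. Channel genes and lists were chosen with earlier results of these data known. Genes named from the lists were drawn from the 4 best counted of each list and from those called in a counted comparison. Not all genes that qualified are named, and most of the best counted potassium, TRP and chloride genes are not. The 3 most alike per channel gene are all named. The script was tested on simulated data. Kept cells held 51238250 UMIs, 3123420 in Afp-positive EC, 3286140 in Afp-low EC, 1312741 in peptide hormone and 43374468 in Chga-low cells, and sparse genes have wide intervals.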

Additional observations from a re-analysis of the deposited data

Results flagged for a closer look

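The authors' filtered table leaves out 8913 barcodes of the matrix, which enter no comparison. The same class rules put 49 of them in the Afp-positive EC class (median 10874 UMIs, 9.78% mitochondrial), 126 in the Afp-low EC class (13.1%), 400 in the peptide hormone class (median 2596 UMIs, 16.0%) and 8281 in the Chga-low class (median 3008 UMIs, 22.5%). Each value below is a signal of more than 3 UMIs in these unused barcodes.

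In left-out Afp-positive EC barcodes, Trpa1 stood at 813 CPM, Scn3a at 408 CPM, Cacna1a at 239.5 CPM, Cacna2d1 at 168 CPM, Cacna1h at 66.5 CPM and Cacna1d at 43.3 CPM. In left-out Afp-low EC barcodes, Scn3a stood at 275 CPM, Trpa1 at 161 CPM, Cacna1a at 124 CPM, Cacna2d1 at 104 CPM, Cacna1h at 35.3 CPM, Cacna1d at 21.0 CPM and Abcc8 at 3.31 CPM. All but Abcc8 lay below the kept cells of that class. In left-out peptide hormone barcodes, Cacna1a stood at 243 CPM, Cacna2d1 at 129 CPM, Abcc8 at 86.2 CPM, Scn3a at 44.4 CPM, and Cacna1h at 38.0 CPM. There too Cacna1c stood at 26.0 CPM, Kcnj11 at 25.3 CPM, Cacna1d at 22.2 CPM and Trpa1 at 13.9 CPM. The interval of Trpa1 (8.74 to 21.1; 22 UMIs) overlapped that of the left-out Chga-low class (13.9 to 16.4). Left-out Chga-low barcodes held 16.4 CPM of Scn3a, 15.1 CPM of Trpa1, 25.1 CPM of Cacna1a and 7.93 CPM of Cacna2d1, each above the kept Chga-low cells.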

How the results depend on the processing

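Results were recomputed under 22 alternatives, 2 of them chosen after seeing the data. The calls of Scn3a and Trpa1 in both EC classes, of Cacna1a and Cacna2d1 in all 3 endocrine classes, of Trpa1 between the EC classes (log2 ratio 1.07 to 1.53) and of Abcc8 in all EC against peptide hormone cells (-6.14 to -2.83) held under all 22. Kcnj11 held in 19 there and Cacna1h in 14 (0.69 to 2.40).

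Of the 8 genes higher in peptide hormone than in Chga-low cells, 4 were left with a minimum of 100 UMIs, 4 after thinning and 5 with tags 3 and 4 alone. Of the 2 higher in Afp-positive than in Afp-low EC cells, 1 was left with a pseudocount of 10 CPM, a minimum of 100 UMIs, a Tph1 limit of 10, an Afp limit of 20, thinning, leaving out the top 6% by doublet score or the 5 top cells, tags 3 and 4 alone, and leaving out EC cells with hormones. Of the 2 lower in all EC than in peptide hormone cells, 1 was left with the minimum of 100 UMIs, thinning, and tags 3 and 4 alone. Cacna1a in tuft-like cells was 108 CPM at Leiden resolution 0.5, where that cluster also had Neurog3 among its leading genes. Abcc8 turned to -0.32 in Afp-positive EC against Chga-low cells with tags 3 and 4 alone, to -0.33 in Afp-low EC against Chga-low cells with overlapping classes, and to -0.57 (thinned) and -0.99 (tags 3 and 4 alone) between the EC classes; Cacna1c in peptide hormone against Chga-low cells turned to -0.64 when thinned. Except where fewer UMIs or cells are in the construction, the cause was not tested. No paired analysis was possible because all cells share 1 library. Few UMIs limit the results of Cacna1c and Kcnj11, and Piezo2 had none in the kept cells.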

Other observations

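EC cells with at least 3 YFP UMIs (162 cells) and with 0 (58 cells) had 480.5 and 516 CPM of Scn3a and 519 and 399 CPM of Trpa1. Abcc8 stood at 8.51 CPM in the cells with YFP and had 0 UMIs in the cells without, where a count of 0 allows up to 4.01 CPM (3 counts). In peptide hormone cells with at least 3 YFP UMIs (35 cells) and with 0 (23 cells), Abcc8 stood at 81.6 and 103 CPM.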
